A study of Mus musculus with 2 samples.

Results

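The genes described here are the secreted Wnt and BMP signals of the mouse colon, with their antagonists and receptors. Members were taken by symbol from the deposited gene list: every numbered Wnt, Fzd, Rspo, Sfrp, Dkk, Bmp, Grem and Lgr gene, plus Bmpr1a, Bmpr2, Chrdl1, Nog, Lrp5 and Lrp6. This gave 63 of 33083 genes, and they are followed across fibroblast subtypes, endothelium and epithelium. The data are droplet single-cell RNA counts from the colon of mice, with 1 library from wild-type (WT) animals and 1 from a transgenic Alzheimer's disease (AD) model. The series' design text names that model APP/PS1-21. Lines of that name carry human APP and presenilin transgenes, usually described as driven by a neuronal Thy1 promoter; the promoter, the age of the mice and the number of animals behind each library are not given in the sources used here. The design text speaks of colonic epithelium, while the protocol digests minced colon tissue, and fibroblasts, endothelium and immune cells were present in both libraries.

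Wnt ligands bind Frizzled (Fzd) receptors with Lrp5 or Lrp6 and stabilise beta-catenin in the receiving cell; R-spondins (Rspo), through the Lgr receptors, keep Frizzled on the cell surface. Secreted Frizzled-related proteins (Sfrp) and most Dickkopf proteins (Dkk) restrain Wnt signalling. BMP ligands act through receptors such as Bmpr1a and Bmpr2, and the secreted proteins Grem1, Nog and Chrdl1 bind BMPs and block them. In the intestine, stromal cells near the crypt base are known for Wnt, R-spondin and BMP antagonist expression that supports stem cells, and subepithelial fibroblasts nearer the surface for BMP expression.

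With 1 library per genotype there is no replicate, so no difference below has a test. Levels are CPM, the unique molecular identifier (UMI) counts of a gene scaled to the UMI total of the class in that library, such that 10000 CPM is 1% of the UMIs of the class, and 95% intervals are exact Poisson intervals that cover counting error only. Where 2 values stand together, WT comes first. A member was measured in a comparison if it had at least 20 UMIs there over both libraries, and it was called when it differed at least 2-fold. Calls between cell classes also had to have the same direction in both libraries. Against a class with 0 UMIs the fold was set against a floor of 3 counts in that library and is a lower bound.

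There were 26898149 UMIs over 4146 barcodes in WT and 38731915 UMIs over 6675 barcodes in AD. Barcodes with over 25% mitochondrial UMIs, removed here, made up 60.4% of the WT and 29.2% of the AD library, and 1546 and 4687 cells were kept with median depths of 3714.5 and 3720 UMIs. The libraries shared 7 barcode sequences, 2 of them among kept cells. Clustering without any member or pathway gene gave 238 and 817 fibroblast-like, 100 and 96 endothelial-like and 549 and 1496 epithelial-like cells. Col1a1 was at 2631 and 2661 CPM in the fibroblast-like cells against 13.9 and 11.3 CPM elsewhere. The libraries also differed in RNA of other cell types: plasma cell markers summed to 356 and 14118 CPM in the fibroblast-like, 514 and 18312 CPM in the endothelial-like and 518 and 4076 CPM in the epithelial-like cells. All-fibroblast sums include a mixed sub-cluster of 3 and 71 cells, where the plasma cell markers were at 566 and 92499 CPM. In the 4 fibroblast subtypes named below they were at 2802 to 4225 CPM in AD. The part of these differences in the member values was not tested.

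Of the 63 members, 48 had at least 20 UMIs in the kept cells. They included 9 of 11 Bmp, 9 of 10 Fzd, 3 of 4 Rspo and all 4 Sfrp genes, but 9 of 19 Wnt genes. Wnt3, a ligand known from Paneth cells of the small intestine, had 4 and 10 UMIs in all kept cells, and Dkk1 had 0 UMIs. No gene below that minimum is read as absent from the tissue.

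Promoter windows are printed for 3 members on which the stromal comparison turns: Bmp4, whose UMIs were mainly in 1 fibroblast subtype but whose highest level was in another, Bmp5, which was high in that other subtype, and the BMP antagonist Grem1, which had no UMI there. They come from RefSeq (GRCm38.p6), are 300 bases long around the annotated start of the gene, and read 5′ to 3′ on the gene's strand. Capitals mark CG dinucleotides, the sites of DNA methylation. Bmp4 is at chr14:46390620-46390919 on the minus strand, Bmp5 at chr9:75775115-75775414 on the plus strand and Grem1 at chr2:113758599-113758898 on the minus strand.
Bmp4: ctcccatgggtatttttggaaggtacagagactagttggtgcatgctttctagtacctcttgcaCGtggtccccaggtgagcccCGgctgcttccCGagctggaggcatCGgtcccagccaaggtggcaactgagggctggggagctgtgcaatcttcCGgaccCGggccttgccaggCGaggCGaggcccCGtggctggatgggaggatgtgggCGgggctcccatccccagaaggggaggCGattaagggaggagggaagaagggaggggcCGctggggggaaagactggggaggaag
Bmp5: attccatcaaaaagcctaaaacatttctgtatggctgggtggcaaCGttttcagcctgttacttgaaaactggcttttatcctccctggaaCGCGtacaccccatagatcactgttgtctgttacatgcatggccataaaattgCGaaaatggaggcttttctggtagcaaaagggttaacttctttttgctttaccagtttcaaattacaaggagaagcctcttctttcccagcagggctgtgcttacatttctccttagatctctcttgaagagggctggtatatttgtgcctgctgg
Grem1: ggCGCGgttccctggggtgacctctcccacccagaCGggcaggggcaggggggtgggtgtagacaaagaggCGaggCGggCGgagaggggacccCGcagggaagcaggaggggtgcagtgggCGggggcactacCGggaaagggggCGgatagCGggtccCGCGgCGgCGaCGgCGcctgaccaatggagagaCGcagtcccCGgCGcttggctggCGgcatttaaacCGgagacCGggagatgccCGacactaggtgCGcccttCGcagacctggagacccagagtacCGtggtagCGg
The Grem1 window held 28 CG pairs and 70.7% G or C, the Bmp4 window 12 pairs and 64%, and the Bmp5 window 4 pairs and 43.3%. Across the 42 windows matched to 39 of the 63 members the medians were 24 CG pairs and 66.5% G or C, against 7 pairs and 52.7% over all 32851 windows of the table. None of the 3 windows held any of 4 letter strings searched on both strands. These were CTTTGAT, the TCF/LEF string of Wnt targets (in 3.73% of all windows, and in those of Wnt11 and Wnt5b), and TGGCGCC, a BMP-SMAD string (in 4.03%, and in those of Fzd9, Rspo1 and Wnt2b). The others were TGTTTAC, a forkhead string (in 3.65%), and GACCACCCA, a GLI string (in 0.253%), and no member window held either. No string overlaps another by design, and a match or its lack is a description of these letters only.

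Most members had their highest level in fibroblasts. Of 44 members with at least 20 UMIs over the fibroblast-, endothelial- and epithelial-like cells, 42 had the same highest compartment in both libraries, against 65.3% of all 15869 genes measured this way. That compartment was the fibroblasts for 32 members (20.6% of all genes), the endothelium for 5 (21.8%) and the epithelium for 5 (22.9%). The endothelial members were the receptors Bmpr2, Fzd4, Fzd6 and Lrp5 and the antagonist Dkk2. Dkk2 was at 24.9 and 28.9 CPM in endothelium and at 17.5 CPM over all WT fibroblasts. All its WT fibroblast UMIs were in the subepithelial subtype described below, which holds 88304 of 1028556 WT fibroblast UMIs. The WT level of Dkk2 was thus higher in that subtype than in endothelium. The epithelial members were Bmp8a, the receptors Fzd5 and Fzd9, and the R-spondin receptors Lgr4 and Lgr5. Bmp2 and Sfrp5 differed between libraries: Bmp2 was at 82.6 CPM in fibroblasts and 76.5 CPM in epithelium of the WT library, and at 89.8 and 112 CPM in the AD library.

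**Figure D1:**
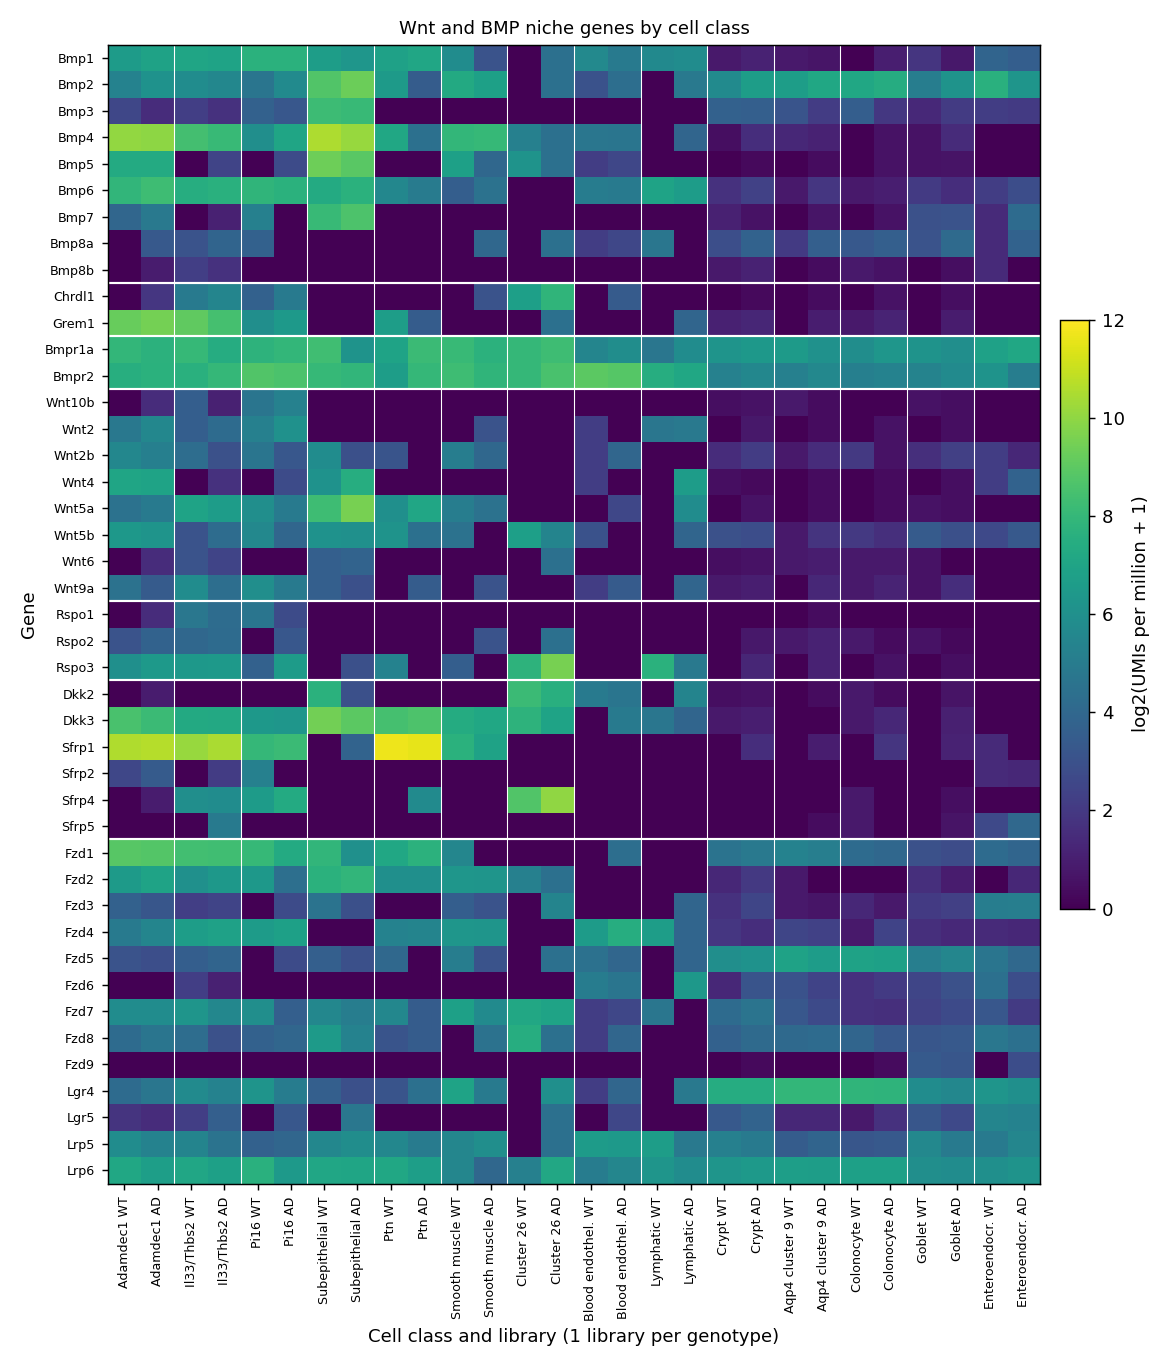
Levels of members in the cell classes of the WT and the AD library, as log2 of CPM plus 1 (colour, brighter is higher), with a measured member on each line and a WT and an AD column for each class. Bmp4 and Sfrp1 are bright in several fibroblast columns, Bmpr2 in blood endothelium and Lgr4 in the epithelial columns, in both libraries.

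Fibroblasts were then split into 7 sub-clusters, again without the members, and 4 of them carried enough markers for a name. Adamdec1 fibroblasts (83 and 248 cells) passed the list written for lamina propria fibroblasts with 5 of 9 markers. Adamdec1 was at 3548 and 3302 CPM against 36.2 and 37.998 CPM in all other kept cells. Ptn and Hapln4 of that list had 0 CPM in these fibroblasts in both libraries. Subepithelial fibroblasts (21 and 31 cells) passed their list with 6 of 10 markers. They had Sox6 at 2254 and 2171 CPM against 19.0 and 11.5 CPM in all other cells, together with Col4a5, Col4a6, Tnc and F3. Nsg1 and Vstm2a of that list had 0 CPM in the WT subepithelial cells, below all other WT cells. In AD both were higher in the subepithelial cells than in all other cells. Smooth muscle markers summed there to 1857 and 1983 CPM, against 304 and 250 CPM over all fibroblasts. Pi16 fibroblasts (13 and 72 cells) passed theirs with 10 of 12 markers. They had Pi16 at 880 and 1003 CPM against 7.82 and 18.9 CPM in all other cells. Cd34 of that list was at 0 and 11.5 CPM, and Dpp4 at 145 and 20.1 CPM against 19.5 and 19.0 CPM in all other cells. The fourth subtype (80 and 307 cells) met the list written for Ackr4 fibroblasts through Cd81, Il33 and Thbs2, but Ackr4 itself had 0 UMIs in every class, so it is called Il33/Thbs2 fibroblasts here. It was not found as a class of its own with a depth minimum of 1000 UMIs or at either of the other clustering resolutions tried, and its calls have no value there. The remaining 3 sub-clusters, which had low depth, RNA of plasma and epithelial cells, or Ptn and Smoc2 as leading genes, stayed unnamed.

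Subepithelial fibroblasts carried the most called ligands. Of 40 members measured among fibroblasts, 9 were higher there than in the other fibroblasts in both libraries (6.69% of all genes were) and 2 were lower (2.74%). The higher ones were the ligands Bmp2, Bmp3, Bmp4, Bmp5, Bmp7 and Wnt5a, the receptors Fzd2 and Fzd8, and Dkk3. The lower ones were the BMP antagonist Grem1 and the Wnt antagonist Sfrp1.

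Bmp3, a BMP that antagonises osteogenic BMPs, was at 294 CPM (192 to 431, 26 UMIs) in WT and 267 CPM (191 to 362, 41 UMIs) in AD subepithelial fibroblasts. This was 39.5 (16.7 to 108) and 44.9 (24.97 to 84.3) times the level of the other fibroblasts, and 78.8% and 70.7% of all fibroblast Bmp3 UMIs came from these few cells. Bmp7 was at 272 CPM (174 to 404) and 403 CPM (309 to 517), or 21.3 and 28.2 times the other fibroblasts. For both genes the excess over the other fibroblasts exceeded its counting error in each library.

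Bmp5 was at 645 CPM (489 to 836, 57 UMIs) and 494 CPM (389 to 618, 76 UMIs), 8.93 and 6.97 times the others. Bmp2 was at 430 CPM (304 to 591) and 624 CPM (506 to 762), 8.61 and 10.2 times the others. Bmp4, a main BMP ligand of gut mesenchyme, was at 1495 CPM (1251 to 1773, 132 UMIs) and 1125 CPM (963 to 1305, 173 UMIs), 2.47 and 2.11 times the others. The Bmp4 excess was the smallest among the 5 Bmp genes called here.

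Grem1 had 0 UMIs in the 21 and the 31 subepithelial cells, against 433 and 1211 UMIs in the other fibroblasts. Against the floor of 3 counts it was at least 13.6-fold lower in WT and at least 21.7-fold lower in AD. Sfrp1 had 0 and 2 UMIs there against 1402 and 3584 elsewhere, which is at least 43.9-fold lower in WT, and the AD ratio was 0.0104 (0.00126 to 0.0376). The same cells with the highest Bmp2, Bmp3, Bmp4, Bmp5 and Bmp7 levels of the 4 named subtypes thus had no detectable Grem1 at this depth.

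Wnt5a, a ligand that mostly acts without beta-catenin, was at 306 CPM (202 to 445, 27 UMIs) and 754 CPM (623 to 904, 116 UMIs) in subepithelial fibroblasts. This was 4.64 and 12.9 times the other fibroblasts. Fzd2, one of the receptors, was at 204 and 241 CPM, or 2.74 and 2.91 times the others. Fzd8 was at 90.6 and 39.0 CPM, or 6.08 and 2.66 times the others. The secreted protein Dkk3, a divergent Dickkopf, was at 702 and 507 CPM, or 2.61 and 2.59 times the others.

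**Figure D2:**
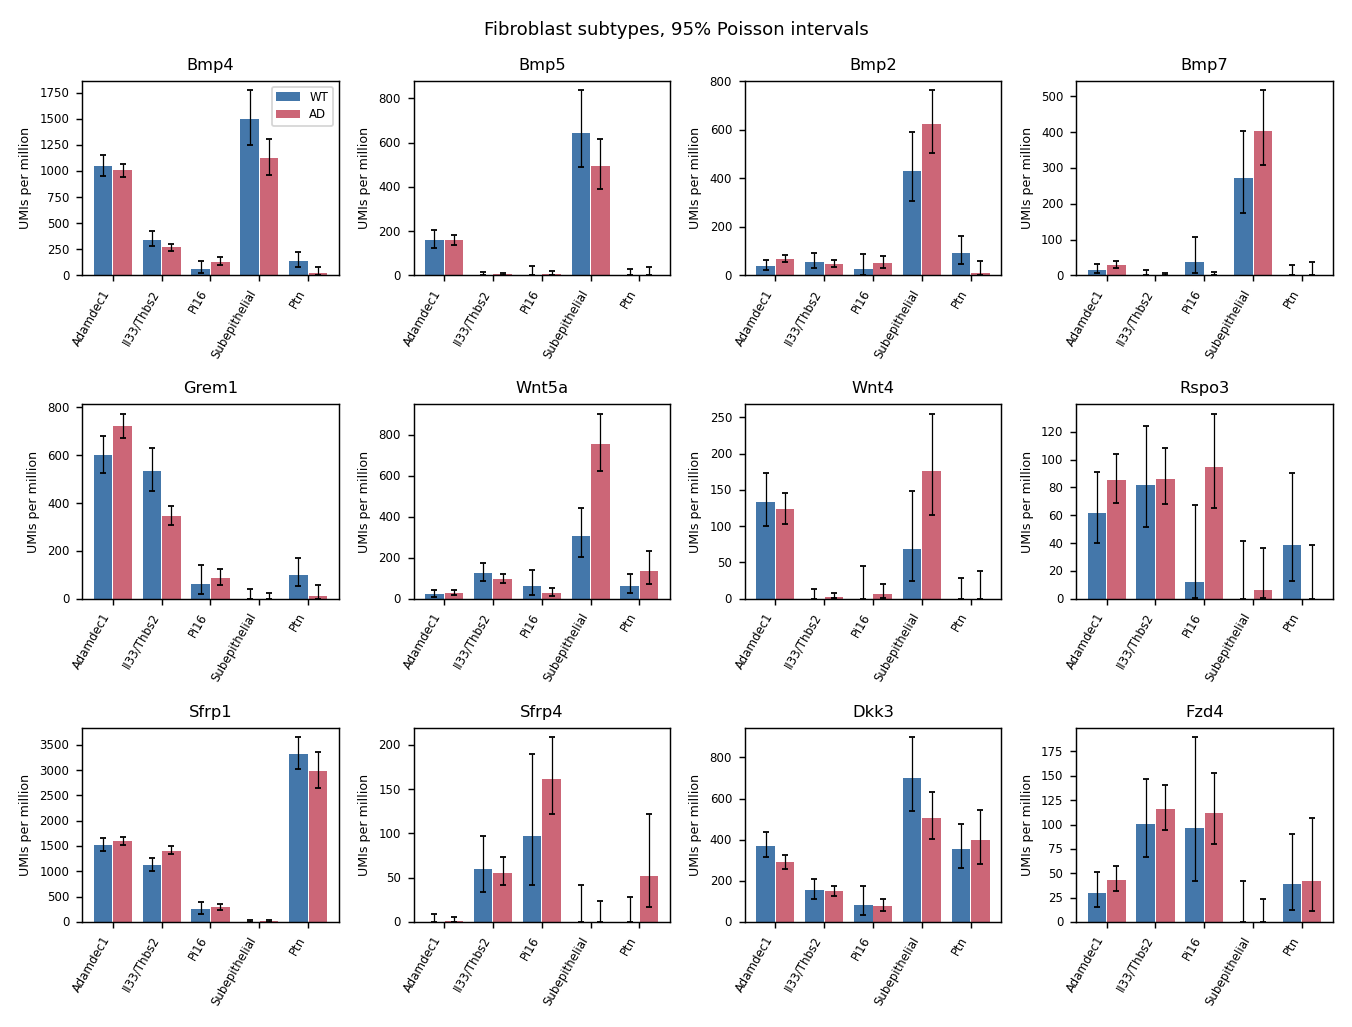
CPM of members in the fibroblast subtypes of the WT and the AD library, as bars from 0 on a linear axis with 95% Poisson intervals as error bars. Bmp2, Bmp5 and Bmp7 are highest in the subepithelial cells of both libraries, where Grem1 has 0 UMIs, and Sfrp1 is highest in the Ptn-led cells.

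Adamdec1 fibroblasts had high Bmp4, which was called, and also much of the Grem1, which was not called. In these cells 4 of the 40 members were higher (3.12% of all genes) and 4 lower (3.8%). Bmp4 was at 1049.9 CPM (953 to 1154, 427 UMIs) and 1005 CPM (946 to 1066, 1099 UMIs), 2.39 and 3.20 times the other fibroblasts. This subtype gave 61% and 64.5% of all fibroblast Bmp4 UMIs. Grem1 was at 599.9 CPM (527 to 680) and 722 CPM (673 to 775) but was not called, since it was 1.97 times the other fibroblasts in WT, just under the limit, and 3.30 times in AD. Il33/Thbs2 fibroblasts held 33.0% and 25.2% of all fibroblast Grem1 UMIs. The unnamed fibroblast sub-cluster of low depth (16 and 68 cells) also had both genes, with 3.93% and 3.55% of the Grem1 and 3% and 5.58% of the Bmp4 UMIs. It held 25111 of 1028556 WT and 91243 of 3019478 AD fibroblast UMIs.

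Among the Wnt ligands, Wnt4 was at 133 CPM (99.7 to 173) and 123 CPM (104 to 146) in Adamdec1 fibroblasts, 8.26 and 4.66 times the others. Wnt2b, a canonical ligand of the gut stroma, was at 46.7 and 35.7 CPM, or 2.08 and 4.90 times the others. Wnt5b was at 83.6 and 73.1 CPM, or 2.17 and 3.06 times the others. The lower members included Bmp3, Sfrp4 and Wnt5a, and Wnt5a stood at 22.1 and 29.3 CPM, 0.172 and 0.224 times the others. Wnt4 was thus high and Wnt5a low in these cells, and the subepithelial cells also had Wnt4, at 67.9 and 176 CPM.

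Among Adamdec1 cells, Bmp4 and Grem1 both had a UMI in 57 of 83 WT and 151 of 248 AD cells. Bmp4 had a UMI in 78 and 222 of these cells and Grem1 in 59 and 164. Thinned to 1000 UMIs per cell, with 5 and 4 shallower cells left out, both were in 17 of 78 and 55 of 244 cells. Bmp4 was then in 47 and 133 and Grem1 in 28 and 95. Whether the overlap exceeds the one that the single-gene counts give by themselves was not tested. In subepithelial fibroblasts Bmp4 had a UMI in 20 of 21 and 29 of 31 cells and Grem1 in none, for which exact upper 95% limits are 16.1% and 11.2%; these limit the share of cells with a UMI, not of cells that express the gene. Thinned, Bmp4 was in 13 of 21 and 22 of 30 subepithelial cells. As background, Bmp4 had a UMI in 0 of 227 and 3 of 469 B cells and in 1 of 109 and 10 of 456 goblet cells, and Grem1 in 0 and 1 B cells and in 0 and 5 goblet cells. The median depths were 5046 and 4277.5 UMIs in Adamdec1 fibroblasts, 2478 and 1987 in B cells and 11483 and 9713.5 in goblet cells, and the fibroblast shares were above those of both.

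Il33/Thbs2 fibroblasts had 4 members higher (1.77% of all genes) and 6 lower (3.12%). The higher ones included a BMP antagonist, an R-spondin and a receptor. Chrdl1, the antagonist, had 8 and 38 UMIs (29.9 and 43.2 CPM), 22.7 (3.04 to 1008) and 5.77 (3.14 to 11.1) times the others. Rspo1 had 7 and 16 UMIs (26.1 and 18.2 CPM), 9.93 (1.89 to 98.0) and 5.55 (2.16 to 16.0) times the others, and Fzd4 was at 101 and 116 CPM, 2.95 and 2.45 times the others. Chrdl1 and Rspo1 rest on few UMIs and so have wide counting error.

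The lower members of Il33/Thbs2 fibroblasts were all ligands: Bmp3, Bmp4, Bmp5, Bmp7, Wnt4 and Wnt5b. Bmp4 was at 343 CPM (277 to 421) and 268 CPM (235 to 305), 0.429 and 0.391 times the others. Bmp5 had 0 and 4 UMIs, Bmp7 0 and 1, and Wnt4 0 and 2. Grem1 was at 534 and 346 CPM in these cells, so the antagonist was present where Bmp5 and Bmp7 were nearly undetected. Rspo3, the most counted R-spondin of the fibroblasts, was at 82.1 and 86.3 CPM here and at 61.5 and 85.0 CPM in Adamdec1 fibroblasts, and it was called in neither.

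Pi16 fibroblasts, an adventitial type, were low in Bmp4 and Sfrp1 and high in Sfrp4. Here 3 members were higher (3.41% of all genes) and 6 lower (2.04%). Sfrp4 was at 96.4 CPM (41.6 to 190.0) and 161 CPM (122 to 209), 5.70 and 7.41 times the others. Wnt2 and Wnt9a were also higher, with Wnt2 at 36.2 CPM from 3 UMIs and 66.1 CPM from 23 UMIs. Bmp4 was at 60.3 and 132 CPM, Grem1 at 60.3 and 86.2 CPM and Sfrp1 at 253 and 290 CPM, all lower than elsewhere, as were Bmp5, Dkk3 and Lrp5. The 5 WT Grem1 UMIs came from 1 of 13 cells, and the WT ratio of Grem1 turned above 1 and a ratio of Wnt2 below 1 with a depth minimum of 1000 UMIs or a coarser clustering. In those settings the class named Pi16 held 77 and 305 or 94 and 376 cells and no Il33/Thbs2 class was found, so it was not the same set of cells.

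Outside the named subtypes, the sub-cluster led by Ptn and Smoc2 (22 and 20 cells) carried high counts of a Wnt antagonist. It had Sfrp1 at 3327 and 2990 CPM, from 430 and 287 UMIs in 18 of 22 and 20 of 20 cells. Cluster 26 (5 and 12 cells), which passed the smooth muscle marker rule at a low level but had none of that list among its leading genes, stayed unnamed. Both groups are small, and their AD and WT values rest on few cells.

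The members with their highest level in endothelium were receptors and the antagonist Dkk2, and none was a ligand. Bmpr2, a type II BMP receptor, was at 464 CPM (392 to 544) in WT and 379 CPM (310 to 459) in AD endothelial-like cells, against 194 and 224 CPM in fibroblasts. Fzd4, the Norrin and Wnt receptor of vessels, was at 96.5 CPM (65.6 to 137) and 134 CPM (94.001 to 184). Dkk2 had 8 UMIs in each library. The ligand Bmp6 was also found in endothelium, at 43.6 and 46.9 CPM, above the receptor Fzd6 at 28.0 and 39.7 CPM. Bmp1 was at 49.8 and 36.1 CPM there. Both were higher in fibroblasts, Bmp6 at 179 and 215 CPM and Bmp1 at 114 and 118 CPM. Among 87 and 76 blood endothelial cells, without the lymphatic ones, Fzd4 was at 96.0 and 175 CPM.

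Of the 8 members measured in endothelium, 0 were called between AD and WT, where 6.46% of all genes were at least 2-fold higher in AD and 5.73% lower, 12.2% in either direction. The log2 ratios were -0.29 (-0.67 to 0.08) for Bmpr2, 0.46 (-0.26 to 1.21) for Fzd4, 0.49 (-0.91 to 1.95) for Fzd6 and -0.41 (-1.31 to 0.44) for Lrp5. All 4 intervals include 0, and those of Fzd4, Fzd6 and Lrp5 reach past 2-fold.

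In the epithelium the members with most UMIs were Lgr4, Bmp2, Lrp6, Bmpr1a and Fzd5. Lgr4, the broadly expressed R-spondin receptor, was at 150 CPM (141 to 158) in WT and 152 CPM (146 to 158) in AD, a log2 ratio of 0.02 (-0.08 to 0.12). Lrp6 was at 80.2 and 84.2 CPM, Bmpr1a at 73.9 and 72.4 CPM and Fzd5 at 71.2 and 74.3 CPM. For these 4 receptors the libraries differed by less than 10% in level, and each interval of the ratio includes no difference.

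Receptors were not even along the epithelial classes. A class was compared only if it had at least 50 cells in each library. The crypt-like cells were led by Clca3b, Cftr, Htr4 and Kcnq1. No gene of the crypt marker list, which holds mostly cell cycle genes, was among their leading genes. The colonocyte-like cells had Saa1, Car1, Guca2a and Slc26a3 of their own list among theirs. The calls, 24 in all, were made at the mitochondrial limit of 25%. At 10%, with 105 and 420 epithelial cells left over all classes, 0 were made. With so few cells for that size rule, the 0 does not tell whether the ratios held. Lgr4 was called lower in goblet cells, at 56.0 and 45.6 CPM or 0.317 and 0.228 times the other epithelial cells, and in enteroendocrine cells, at 74.3 and 62.4 CPM. It stood at 170 and 174 CPM in the crypt-like cells and at 227 and 219 CPM in the colonocyte-like cells. The 2 secretory classes were thus both low in this receptor in both libraries. In goblet cells 2 members were higher (6.04% of all genes) and 2 lower (8.55%), and in enteroendocrine cells 3 were higher (19%) and 2 lower (4.08%).

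Fzd9 was nearly confined to goblet cells, which held 18 of 19 WT and 47 of 53 AD epithelial UMIs of the gene, 62.2 (9.82 to 2592) and 17.1 (7.29 to 48.9) times the other epithelial cells. Bmp7 was the other member higher in goblet cells, at 6.81 and 7.42 CPM. In enteroendocrine cells, the hormone-secreting class, Fzd3 was at 32.8 and 34.3 CPM, 15.3 and 12.2 times the others, and Bmp1, a protease that processes procollagen and BMP antagonists, at 13.8 and 10.9 CPM. Goblet markers summed to 484 and 13816 CPM in the enteroendocrine cells, and their part in these values was not tested.

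Lgr5, the marker of cycling crypt stem cells, was highest in enteroendocrine cells, at 43.2 CPM (28.0 to 63.8) and 39.0 CPM (25.2 to 57.5), with 25 UMIs in each library from 8 and 10 cells. This was 6.99 and 6.70 times the other epithelial cells. In crypt-like cells Lgr5 was at 9.16 CPM (5.87 to 13.6) and 13.0 CPM (9.75 to 17.0). Fzd7, the Wnt receptor known from intestinal stem cells, was the 1 member higher in crypt-like cells (3.45% of all genes), at 17.6 and 23.6 CPM or 3.04 and 5.13 times the others, and 2 members were lower (5%). These were Bmp7 and Fzd9.

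Colonocyte-like cells had 0 members higher (4.84% of all genes) and 6 lower (17.3%): Bmp6, Fzd3, Fzd7, Lgr5, Lrp5 and Wnt5b, of which Bmp6 turned to the other side in 1 library with a depth minimum of 1000 UMIs or a coarser clustering. The cluster led by the water channel gene Aqp4 had 1 higher (0.768%), Fzd1 at 38.9 and 34.5 CPM, and 3 lower (7.08%), namely Fzd3, Lgr5 and Wnt5b. An epithelial cluster of low depth, with medians of 1614 and 1249.5 UMIs, had Dkk3 and Wnt9a higher (5.21%) and 0 members lower (1.14%), but from few UMIs.

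**Figure D3:**
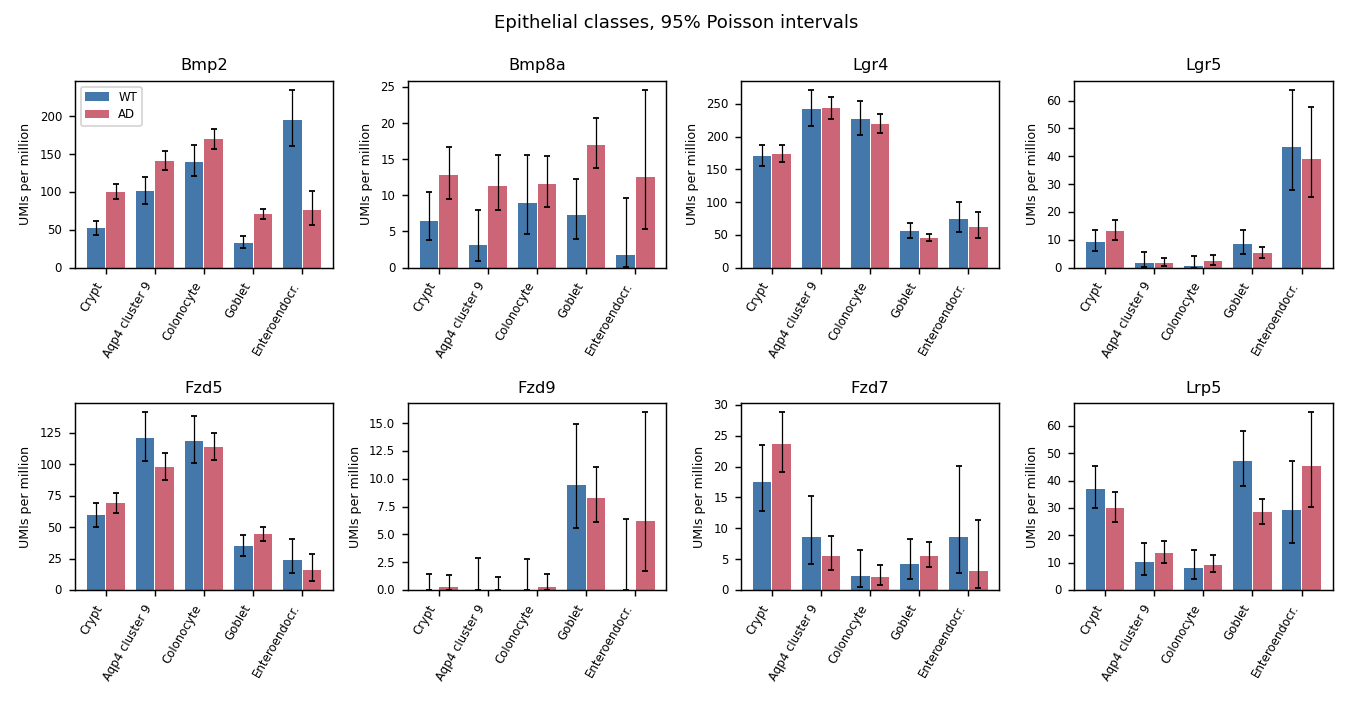
CPM of members in the epithelial classes of the WT and the AD library, as bars from 0 on a linear axis with 95% Poisson intervals as error bars. Lgr4 is lowest in goblet and enteroendocrine cells, Lgr5 is highest in enteroendocrine cells, and Bmp2 is higher in AD than in WT in every class drawn except the enteroendocrine cells.

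Between AD and WT, most fibroblast members stayed within 2-fold. Of 40 members measured, 3 were at least 2-fold higher in AD (5.59% of all 11218 genes were) and 1 at least 2-fold lower (2.75%), which for either direction is 8.34% of all genes, so the share called was near that of all genes. The median log2 ratio of the members was -0.05, against -0.01 for all genes. Of the main ligand and antagonists, Grem1 was at 421 and 401 CPM, a log2 ratio of -0.07 (-0.23 to 0.09), Bmp4 at 681 and 564 CPM, -0.27 (-0.40 to -0.14), and Sfrp1 at 1363 and 1188 CPM, -0.20 (-0.29 to -0.11).

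The 4 calls in fibroblasts came from low counts. Bmp8a had 3 UMIs in WT and 28 in AD (log2 ratio 1.47, -0.03 to 4.03), Lgr5 2 and 21 UMIs (1.55, -0.19 to 4.98), and for both the interval of the ratio includes no difference. All 26 AD UMIs of Sfrp5 were in 1 cell, and WT had 0, so without that cell both libraries had 0 UMIs and no ratio is given. Dkk2 had 18 and 2 UMIs (17.5 and 0.66 CPM, log2 ratio -4.44, -7.88 to -2.66), and its 18 WT UMIs came from 4 cells, all subepithelial. Over all fibroblasts 0 members were called at a minimum of 50 UMIs.

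Members that missed the 2-fold limit included Wnt2 at 17.5 and 31.5 CPM, a log2 ratio of 0.81 (0.11 to 1.66), and Wnt2b at 32.1 and 17.6 CPM, -0.88 (-1.52 to -0.20). Wnt9a stood at 29.2 and 14.9 CPM, -0.98 (-1.67 to -0.25), and Dkk3 at 306 and 211 CPM, -0.54 (-0.73 to -0.34). Their counting intervals exclude equal levels in these 2 libraries, but how much WT libraries differ among themselves is not known from 1 library. Shares of subtypes also differed, with 8.82% of WT and 3.79% of AD fibroblasts subepithelial. Subepithelial cells held 19.7% and 12.2% of the fibroblast Dkk3 UMIs and 15.2% and 1.89% of those of Wnt2b, but 3.33% and 2.22% of those of Wnt9a and none of those of Wnt2.

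Within subepithelial fibroblasts Wnt5a was at 306 and 754 CPM, a log2 ratio of 1.28 (0.69 to 1.96). In the same cells Bmpr1a was at 317 CPM (211 to 458, 28 UMIs) and 71.5 CPM (35.7 to 128, 11 UMIs), a log2 ratio of -2.11 (-3.30 to -1.10), and Fzd1 at 238 and 65.0 CPM, -1.83. Wnt4 was also past 2-fold in these cells, at a log2 ratio of 1.28. The AD cells number 31 against 21 in WT, and the share of all genes past 2-fold between them was not computed. These values are therefore given for single members only. Wnt9a, within 2-fold over all fibroblasts, had 15 and 17 UMIs in Il33/Thbs2 fibroblasts (56.0 and 19.3 CPM), a log2 ratio of -1.54 (-2.63 to -0.43), and 9 and 11 in Adamdec1 fibroblasts (22.1 and 10.1 CPM), -1.15 (-2.55 to 0.31). In Adamdec1 fibroblasts, the subtype with most cells in WT, Bmp4 had a log2 ratio of -0.06 (-0.23 to 0.10) and Wnt4 one of -0.11 (-0.57 to 0.38).

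**Figure D4:**
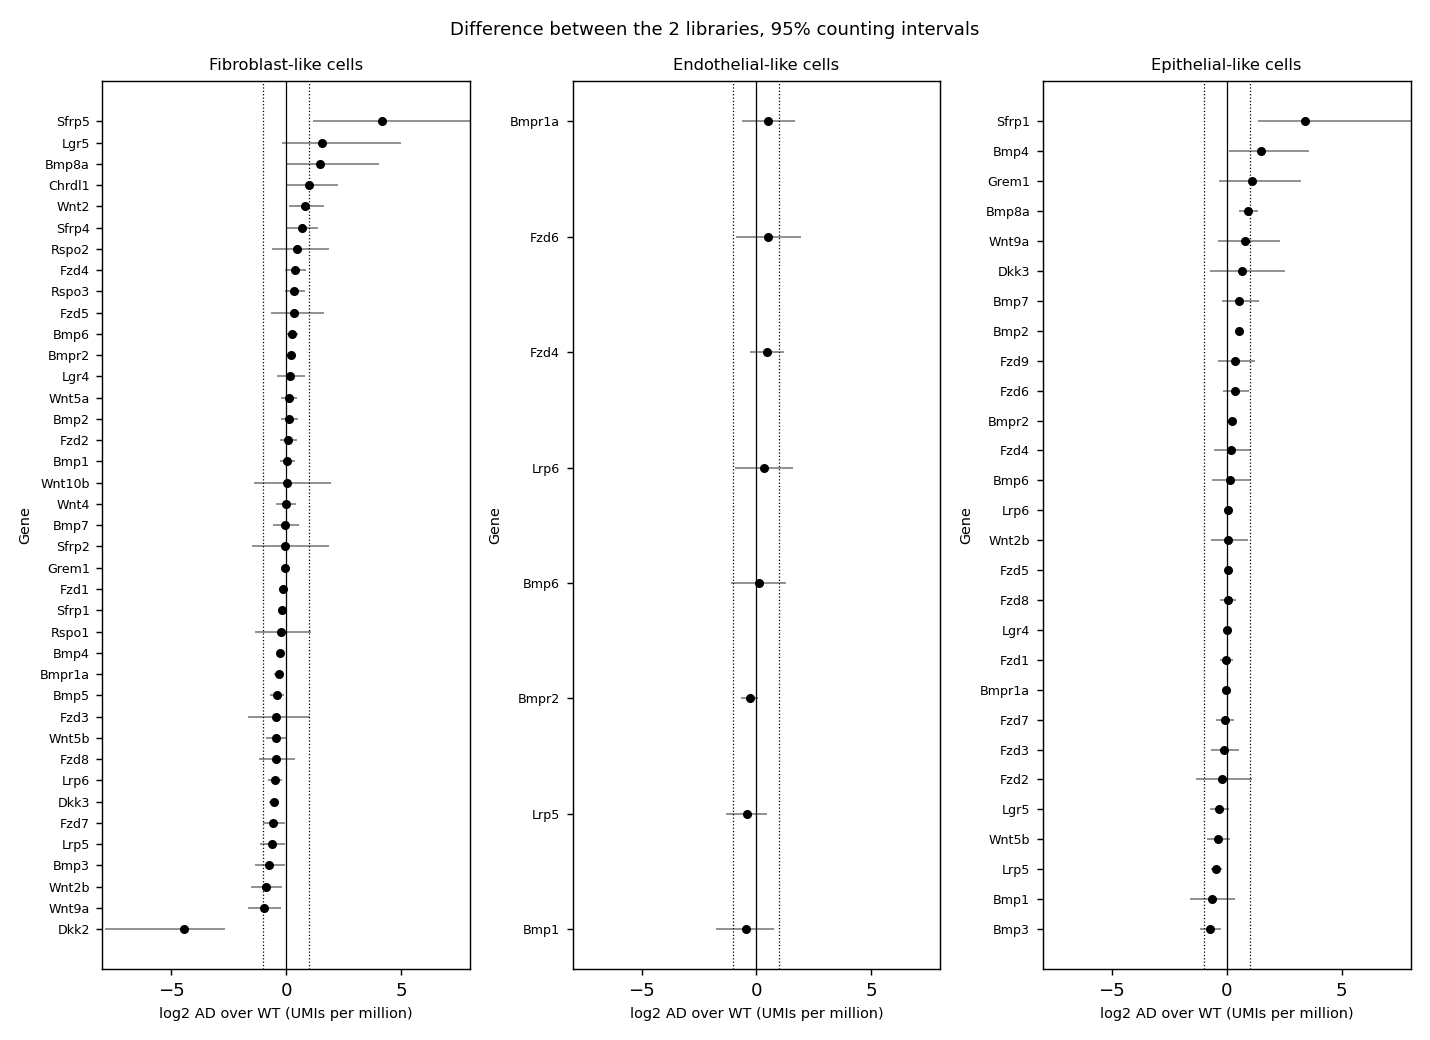
Log2 ratio of AD over WT for the members measured in fibroblast-, endothelial- and epithelial-like cells, with 95% conditional intervals of the UMI sums (ends beyond the axis are drawn at its edge) and dotted lines at 2-fold. Most members lie between the dotted lines, and 3 higher and 1 lower in fibroblasts and 3 higher in epithelium lie outside them.

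In epithelial cells 3 of 28 members were at least 2-fold higher in AD (3.95% of all 14329 genes were) and 0 were lower (6.02%), where 9.97% of all genes passed in either direction. They were Sfrp1 with 1 and 33 UMIs (0.12 and 1.83 CPM, log2 ratio 3.40, 1.38 to 9.31), Bmp4 with 4 and 26 UMIs and Grem1 with 4 and 20 UMIs. All 3 had their highest compartment in fibroblasts, and the 12 fibroblast markers summed to 21.2 CPM in WT and 72.4 CPM in AD epithelial cells, with 11 of the 12 seen in WT and all 12 in AD; their part in these calls was not tested. At a depth minimum of 1000 UMIs per cell the log2 ratio of Grem1 was -0.35.

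Bmp2, the BMP ligand of surface epithelium, had most UMIs of the epithelial ligands, with 651 in WT and 2010 in AD. It was at 76.5 CPM (70.8 to 82.6) and 112 CPM (107 to 117), a log2 ratio of 0.54 (0.42 to 0.67), which is below 2-fold. By class, Bmp2 was at 51.9 and 100.2 CPM in crypt-like cells (0.94, 0.67 to 1.24), 140 and 170 CPM in colonocyte-like cells (0.27, 0.04 to 0.52) and 33.0 and 70.7 CPM in goblet cells (1.09, 0.71 to 1.51). In enteroendocrine cells it was at 195 CPM (161 to 235) and 76.4 CPM (56.5 to 101), a log2 ratio of -1.35 (-1.87 to -0.86). That class joins cluster 17 (53 and 56 cells), led by Chgb, Chga and Tph1, and cluster 24 (8 and 18 cells), led by Pyy, Insl5 and Gcg. Within cluster 17 Bmp2 was at 218 CPM (178 to 264) and 93.0 CPM (66.7 to 126), a log2 ratio of -1.22 (-1.79 to -0.69), and cluster 24 had 9 and 8 UMIs. Crypt-like cells had median depths of 26524.5 and 10999 UMIs, and goblet cells were 19.9% of WT and 30.5% of AD epithelial cells; the part of either in the Bmp2 values was not tested. The sign over all epithelial cells turned with the mitochondrial limit: the log2 ratio was -0.40 at 10% and 0.85 at 50%.

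Bmp8a was at 6.94 CPM (5.28 to 8.95) and 13.4 CPM (11.8 to 15.2) in epithelial cells, a log2 ratio of 0.94 (0.53 to 1.39). Bmp3 was at 8.23 and 5.06 CPM, -0.71 (-1.17 to -0.23). Lgr5 was at 8.70 and 6.9995 CPM, -0.32 (-0.74 to 0.12), and its ratio was -1.40 at a mitochondrial limit of 10% and 0.25 at 50%. None of these 3 members was called.

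Known targets and intracellular parts of both pathways, from 4 lists of 93 genes that hold no member, were read beside the ligands. In epithelial cells 16 Wnt target genes were measured, of which 0 were higher and 1 lower: Lef1, a TCF/LEF factor, with 58 and 46 UMIs and a log2 ratio of -1.41 (-2.01 to -0.83). Over all genes 3.95% were higher and 6.02% lower. Lef1 is also a T cell gene, and 11 markers of T and innate lymphoid cells summed to 47.1 and 22.1 CPM in the epithelial cells (515 and 215 CPM in the enteroendocrine cells, which had 11 and 1 of the Lef1 UMIs); their part in the call was not tested. Axin2, the most used Wnt target, was at 24.0 and 19.6 CPM, -0.29 (-0.54 to -0.03), and the median of the list was -0.00, against -0.05 for all genes. Wnt target RNA in the epithelium was therefore within 2-fold for 15 of 16 genes.

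Of 10 BMP targets measured in epithelial cells, 0 were higher and 1 was lower, Atoh8 with 14 and 6 UMIs (log2 ratio -2.24, -3.97 to -0.83). The median of the list was -0.70, against -0.05 for all genes. Id1, a direct target of SMAD signalling, had the highest ratio of the 10. It was at 331 CPM (319 to 344) and 314 CPM (306 to 322), -0.08 (-0.14 to -0.01), so all 10 ratios were below 0. The lowest ratios after Atoh8 also came from low counts, with 13 and 15 UMIs for Smad9 and 19 and 22 for Hhex. Goblet cells were 19.9% of WT and 30.5% of AD epithelial cells, and the part of this in the target values was not tested. Of 32 Wnt machinery genes, 0 were higher and 1 was lower, the secreted Wnt inhibitor Wif1, with 66 and 19 UMIs and a log2 ratio of -2.85 (-3.70 to -2.12). Of 19 BMP machinery genes 1 was higher and 1 lower.

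In fibroblasts 12 Wnt targets had a median log2 ratio of 0.12, with 0 higher and 1 lower (Lef1, -1.17), where 5.59% of all genes were higher and 2.75% lower. There 9 BMP targets had a median of -0.29 with 0 calls. The machinery lists had 0 of 31 Wnt genes and 1 of 22 BMP genes called, the BMP family ligand Gdf6 at -1.38. In endothelium 3 of 5 Wnt targets were higher, Sox9 with 1 and 30 UMIs, Cd44 with 3 and 23 and Myc with 9 and 16, and 1 of 7 BMP targets was, Hhex with 16 and 36 UMIs, where 6.46% of all 5214 genes were higher. Plasma cell and, in the lymphatic cells, epithelial markers (250 and 5386 CPM) were also higher in the AD endothelium, and their part in these values was not tested.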

How the data were processed

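The authors deposited gene-by-barcode matrices of raw counts (whole UMI counts, not normalized) for 1 WT and 1 AD library. Cell Ranger 3.0.1, STAR, Seurat 3.0.2 and the mm10 build are listed in the submitters' processing notes, and the deposited barcodes start at 500 UMIs. Colon tissue was minced, digested with trypsin and DNase I and cleared of red cells before 3′ library preparation, per the labels' protocols.

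From these counts, barcodes were used if they had 500 or more UMIs, 200 or more genes and no more than 25% mitochondrial UMIs. Scrublet, run on each library at an expected rate of 0.06, marked 4 of 1550 WT and 4 of 4691 AD cells; so small a share means that doublets were in effect not removed. Cells were clustered in scanpy 1.11.5 (Python 3.11.15, leidenalg 0.10.2) on 2000 variable genes, 30 principal components and 15 neighbours at resolution 1, without the 156 members and pathway genes, and fibroblasts again at 0.5. Clusters were named from marker lists when at least 3 markers and 0.3 of a list were detected in 10% of cells and 4-fold above the rest (2-fold between subtypes); these limits were set after the clusters were seen. Epithelial-like clusters needed 6000 CPM of epithelial markers. For each class of each library the UMIs were added up, with 0.5 counts added to each sum for log2 ratios, with exact intervals from scipy 1.17.1. The computation was tested on simulated data. Any member could be named, and from the pathway lists the genes with the largest and smallest ratios among those with 20 UMIs, plus any used to describe a receptor or target. The members and lists were chosen with earlier results of these data known. Tuft and glial cells, too few in at least 1 library, were not compared, no samples were left out, and 1 member is not reported here.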

Additional observations from a re-analysis of the deposited data

Results flagged for a closer look

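Members also stood out in cells that no comparison above used. Sfrp5, a secreted Wnt antagonist, was at 343 CPM in 36 WT glial cells and at 766 CPM in 3 AD glial cells (43 and 7 UMIs), above its level in fibroblasts and epithelium. Sfrp1 was higher still in the glial cells, at 2505 and 4814 CPM (314 and 44 UMIs in 35 and 3 cells). Over all fibroblasts Sfrp1 was at 1363 and 1188 CPM. Fibroblast markers summed to 4612 and 875 CPM in the glial cells, and their part in these values was not tested. In cluster 26, of 5 WT and 12 AD cells, AD levels were 353 CPM for the BMP antagonist Nog, 747 CPM for Rspo3 and 1017 CPM for Sfrp4. The WT levels there were 466, 215 and 430.1 CPM. The AD Rspo3 UMIs were in 4 of 12 cells and the Sfrp4 UMIs in 8 of 12.

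For 5 members the AD over WT log2 ratio was past 2-fold in opposite directions in 2 classes, and the difference between the classes was not tested. Bmp2 was at -1.35 in enteroendocrine cells against 3.49 in lymphocytes, where it had 2 and 38 UMIs. Bmp4 was at -2.46 in the Ptn-led fibroblasts (18 and 2 UMIs) against 1.01 in Pi16 fibroblasts (5 and 46 UMIs). Bmpr1a was at -2.11 in subepithelial against 1.22 in Ptn-led fibroblasts, and Fzd1 at -1.83 in subepithelial fibroblasts against 1.03 in the unnamed sub-cluster with plasma and epithelial RNA, which holds 3 WT cells. Bmpr2 was at -1.10 in enteroendocrine cells against 1.29 in Ptn-led fibroblasts. Each pair includes a class with few cells or few UMIs of the gene.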

How the results depend on the processing

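The 12 planned and 4 added settings, the latter chosen after seeing the data, gave 208 recomputed AD over WT values. Of these, 195 stayed within their counting interval, 12 left it and 1 reversed. Only members called at 2-fold could count as reversed there. The sign changes of epithelial Bmp2 and Lgr5 with the mitochondrial limit were thus not counted as reversals. Of 1320 recomputed ratios between subtypes or classes, 1257 stayed past 2-fold, 51 did not and 12 reversed. The 4 calls in fibroblasts became 0 with a minimum of 50 UMIs and 8 as a mean over cells. The 3 in epithelium became 0 with 50 UMIs, 6 as a mean over cells, 6 at a mitochondrial limit of 50% and 11 with no UMI minimum. With no minimum 5 were called in endothelium, where 0 had been. The 14 list calls became 5, 25 with no minimum and 30 as a mean over cells. Calls in epithelial classes fell from 24 to 0 at a limit of 10%, which left 105 WT and 420 AD epithelial cells in all. A class needed 50 cells in each library to be compared, so this 0 does not tell whether the ratios held. At 50%, ratios in the low-depth epithelial cluster turned to -0.92 (WT) and -0.16 (AD) for Dkk3 and -1.63 and -0.60 for Wnt9a. At a depth minimum of 1000 UMIs Grem1 turned to -0.35 in epithelium (AD over WT) and 0.16 in WT Pi16 fibroblasts, Wnt2 to -0.049 and -0.22 in Pi16 fibroblasts, and Bmp6 to 0.43 in WT colonocytes. In that setting and at resolution 0.5 the Pi16 class held 77 and 305 or 94 and 376 cells, not 13 and 72, and no Il33/Thbs2 class was found (nor at resolution 2). At resolution 0.5 Grem1 was at 0.10 in WT and Wnt2 at -0.10 in AD Pi16 fibroblasts, and Bmp6 at 0.064 in AD colonocytes. As a mean over cells Bmp7 was at 0.12 in WT crypt cells. Beyond what each setting leaves out, the cause was not tested. No paired analysis was possible because each genotype has 1 library.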
